A study of Mus musculus with 4 samples.

Results

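The effect of adding iloprost, a stable prostacyclin analogue, was read from the pair of arrays that differ by that agent alone among the 4 arrays of the series. Both dishes held synovial fibroblasts from the knee joints of naïve male DBA/1J mice 8 to 12 weeks old, passaged 3 to 4 times and kept in RPMI1640 with 1% serum. Each received IL-1β at 5 ng/ml and 1 µM indomethacin for 6 h, and 1 of them also received 1 µM iloprost. The other arrays, vehicle and IL-1β alone for the same 6 h, serve as reference levels, and IL-1β without indomethacin but with iloprost is not analysed here. The labels do not say how many mice gave the cells or whether the dishes came from the same preparation. Every gene with a probe set of its own was taken, 12393 in all, with no choice by its values. There is 1 array per treatment, so no value has an error between dishes and no test was possible. Each ratio compares 2 dishes.

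Prostacyclin acts through the IP receptor, encoded by Ptgir, which couples to the stimulatory G protein, raises cyclic AMP and so activates protein kinase A and the transcription factor CREB. Feedback comes from phosphodiesterases that break down cyclic AMP and from inducible repressors such as the short forms of CREM. Indomethacin blocks the cyclooxygenases, so cells given it make little prostanoid of their own. Iloprost binds the IP receptor and also the prostaglandin E2 receptor EP1. In the inflamed joint, fibroblasts and macrophages of the synovium release chemokines, cytokines and matrix proteases, and an autocrine interferon loop, in which STAT and IRF factors bind an interferon-stimulated response element (ISRE), keeps a set of antiviral and chemokine genes on.

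Signals are linear array intensities, and a signal of 37.6 or less, the 50th percentile over all arrays and called the floor, was treated as not measured. A gene took its brightest probe set, and its log2 ratio is iloprost with indomethacin and IL-1β over indomethacin and IL-1β, relative to the median gene of the arrays. That centring moved ratios by 0.01. Of the genes, 6414 were above the floor on both arrays, 572 on 1 array only, which gives a bound (at least, or at most) in place of a ratio, and 5407 on neither. The log2 signals of the pair correlated across genes with r = 0.95, and the share of probe sets above the floor was 49.3% without and 50.7% with iloprost. Probe sets of the same gene differed in their log2 ratio with an SD of 0.20 per probe set (5858 probe sets of 2364 genes), which measures noise within the arrays and leaves out differences between dishes. Genes at least 2-fold apart, a log2 ratio of 1.0 or more in size, are called higher or lower below.

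The cells carried RNA of both fibroblasts and macrophages, although the labels name fibroblasts. All 22 fibroblast marker genes were measured, none was past 2-fold, their median log2 ratio was 0.06, and their summed signal was 41348 without and 44253 with iloprost. The collagen gene Col1a2 read 5510 before and 5622 after adding iloprost. Of 28 macrophage marker genes, 27 were measured and 22 lay below the median gene, with a list median of -0.33 and a summed signal of 47158 without and 41498 with iloprost. Csf1r, the receptor of the macrophage growth factor, had signals of 4179 and 3998, and its other probe sets had log2 ratios of 0.48 and 0.55. The Fc receptor genes Fcgr1 (-1.46) and Fcgr2b (-1.54), the scavenger receptor gene Marco (-1.19) and the β-glucan receptor gene Clec7a (-1.13) were lower. Cd163, a macrophage scavenger receptor gene, was at the floor. Lymphocyte, endothelial and cartilage markers were nearly all at the floor: Cd3e had signals of 3.7 and 3.6, Pecam1 0.9 and 2.6, and Cdh5 5.1 and 8.9. In such a bulk sample, fewer cells of a type and less RNA per cell cannot be told apart.

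With iloprost, 138 of 6986 measured genes were higher (1.98%) and 223 were lower (3.19%). The middle of the distribution was narrow, with quartiles of -0.19 and 0.24, so the genes past 2-fold form the tails. At 4-fold the counts were 20 higher and 54 lower, and at 8-fold 7 and 14. Of the genes past 2-fold, 38 higher and 23 lower ones were bounds. Another probe set above the floor on both arrays existed for 78 of them, and it went the same way for all 78 and, for 49, every such probe set was itself past 2-fold. The genes farthest from the median gene were chemokine and interferon-response genes on the low side and, on the high side, Cytip, Arg1, Ramp3, Cd207 and Uap1.

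**Figure D1:**
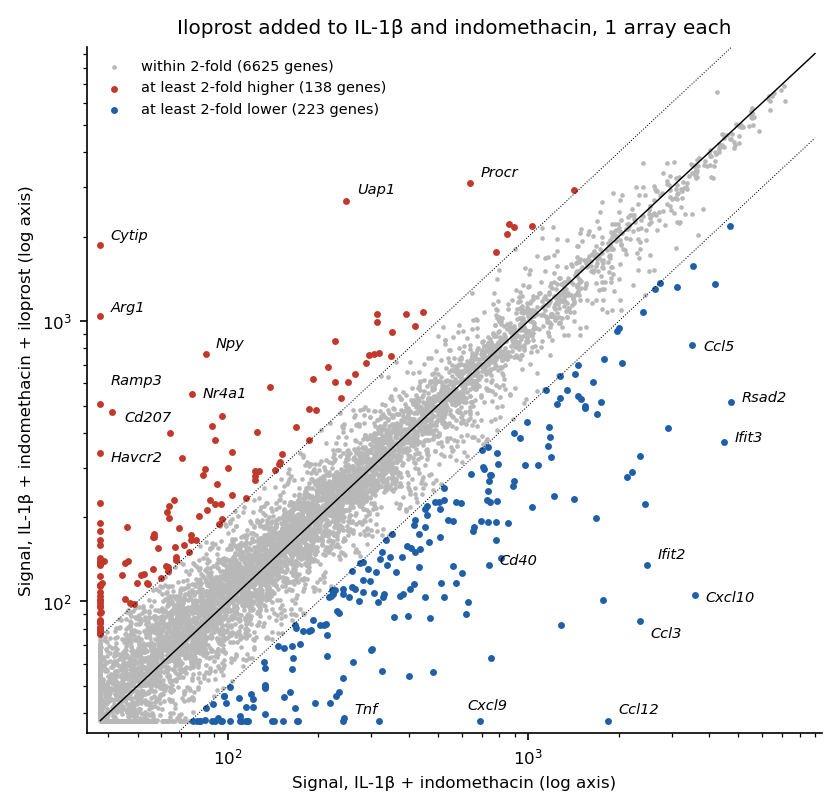
Signal of every measured gene with IL-1β and indomethacin (x axis, log scale) and with iloprost added (y axis, log scale), 1 array each, with genes at least 2-fold higher in red and at least 2-fold lower in blue. The 223 lower genes include Cxcl10, Ccl12 and Ccl3, with signals of 3576, 1847 and 2359 without iloprost, and the 138 higher genes include Cytip and Arg1, at the floor without it.

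Promoter letters are given here for genes that stand at both ends of the ratios, because the ISRE and the cyclic AMP response element (CRE) are the DNA elements of the pathways just described. Sequences are the 250 bases before the start of the gene, 5′ to 3′ in the direction of transcription, from RefSeq on build GRCm38.p6. Of the 4 lowest and 4 highest named genes with a table entry (Ccl12, Cxcl10, Ccl3, Ifit2, Cytip, Ramp3, Cd207 and Uap1), Cxcl10, Cytip and Uap1 held an ISRE-type or CRE motif. Ifit3, Rsad2, Nr4a1, Dio2 and Ch25h were added after their values were seen, because they hold such a motif. For 4 genes the capitals mark the ISRE-type motif GAAANNGAAA on either strand. The lower genes are Cxcl10 (chr5:92348890-92349139, minus strand), Ifit3 (chr19:34583279-34583528, plus strand) and Rsad2 (chr12:26456453-26456702, minus strand), and the higher gene is Cytip (chr2:58160123-58160372, minus strand).
Cxcl10: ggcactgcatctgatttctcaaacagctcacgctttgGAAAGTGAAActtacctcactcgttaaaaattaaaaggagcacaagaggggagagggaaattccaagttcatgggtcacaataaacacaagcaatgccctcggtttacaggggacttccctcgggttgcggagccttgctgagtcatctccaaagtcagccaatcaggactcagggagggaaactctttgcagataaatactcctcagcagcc
Ifit3: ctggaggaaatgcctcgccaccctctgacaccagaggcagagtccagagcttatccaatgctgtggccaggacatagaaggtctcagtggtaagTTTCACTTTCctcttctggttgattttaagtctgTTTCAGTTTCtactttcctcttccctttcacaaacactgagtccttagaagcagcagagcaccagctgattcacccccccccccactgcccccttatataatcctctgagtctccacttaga
Rsad2: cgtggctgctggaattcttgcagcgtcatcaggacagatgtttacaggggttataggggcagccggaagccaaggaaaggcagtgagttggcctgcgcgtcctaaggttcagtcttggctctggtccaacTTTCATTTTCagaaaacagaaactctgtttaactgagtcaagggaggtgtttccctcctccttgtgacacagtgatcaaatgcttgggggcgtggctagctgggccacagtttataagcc
Cytip: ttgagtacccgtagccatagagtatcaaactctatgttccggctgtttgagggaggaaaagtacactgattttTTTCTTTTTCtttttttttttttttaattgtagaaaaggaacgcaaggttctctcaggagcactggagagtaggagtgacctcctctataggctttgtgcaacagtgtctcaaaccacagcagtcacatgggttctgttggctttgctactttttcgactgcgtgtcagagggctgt

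The motif began 213 bases before the start in Cxcl10, 156 and 122 bases before it in Ifit3, 120 in Rsad2 and 177 in Cytip, where it lies in a run of T. For the next 4 genes the capitals mark the CRE core TGACG on either strand, which reads CGTCA on the strand shown when it lies on the other, and in Dio2 and Ch25h the full palindrome TGACGTCA, which contains the core on both strands. Uap1 (chr1:170174965-170175214, minus strand), Nr4a1 (chr15:101266596-101266845, plus strand) and Dio2 (chr12:90739039-90739288, minus strand) were higher with iloprost, and Ch25h (chr19:34475149-34475398, minus strand) was lower.
Uap1: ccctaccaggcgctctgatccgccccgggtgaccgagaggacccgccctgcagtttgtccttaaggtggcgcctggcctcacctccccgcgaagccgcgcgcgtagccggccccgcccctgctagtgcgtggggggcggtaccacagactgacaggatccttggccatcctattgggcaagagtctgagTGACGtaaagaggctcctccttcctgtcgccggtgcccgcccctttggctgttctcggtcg
Nr4a1: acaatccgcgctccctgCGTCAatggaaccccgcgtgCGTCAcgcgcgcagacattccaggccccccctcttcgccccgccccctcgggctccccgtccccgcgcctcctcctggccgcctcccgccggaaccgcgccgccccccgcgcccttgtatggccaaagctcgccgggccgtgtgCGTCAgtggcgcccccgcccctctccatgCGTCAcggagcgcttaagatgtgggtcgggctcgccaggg
Dio2: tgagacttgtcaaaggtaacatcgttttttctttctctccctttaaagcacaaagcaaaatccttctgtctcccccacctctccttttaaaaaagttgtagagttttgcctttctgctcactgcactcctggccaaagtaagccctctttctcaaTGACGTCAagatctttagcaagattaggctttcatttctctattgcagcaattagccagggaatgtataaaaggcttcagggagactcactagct
Ch25h: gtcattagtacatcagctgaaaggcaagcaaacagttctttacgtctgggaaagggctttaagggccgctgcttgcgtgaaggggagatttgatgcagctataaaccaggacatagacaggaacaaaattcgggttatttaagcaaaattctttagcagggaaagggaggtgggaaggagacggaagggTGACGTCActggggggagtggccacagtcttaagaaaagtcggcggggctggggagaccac

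The core began 61 bases before the start in Uap1 and 233, 213, 69 and 40 bases before it in Nr4a1, and the palindrome began 95 bases before the start in Dio2 and 61 in Ch25h. So the same palindrome stood before a gene that was higher and a gene that was lower. Over all 27025 genes of the promoter table, 3.46% held the ISRE-type motif, against 16.9% of the lower genes with an entry (30 of 178), 1.94% of the higher genes (2 of 103, Cytip and Tgfbi) and 3.02% of genes within 2-fold (164 of 5433). Within the interferon lists described next, 32.8% held it (22 of 67). Among the lower genes outside those lists the share was 9.56% (13 of 136). These 13 are Cxcl10, Coro2a, Lgals9, Mitd1, Mmp13, Ncf1, Pilra, Pilrb1, Plk2, Rbm43, Slc25a22, Tdrd7 and Tmem140. Of the interferon list genes within 2-fold, 20.0% held the motif (5 of 25).

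The CRE core was in 19.8% of all promoters, 23.3% of the higher genes (24 of 103), 21.9% of the lower (39 of 178) and 32.9% of those within 2-fold (1787 of 5433). The full palindrome was in 1.77% of all promoters, 1.94% of the higher genes, 3.37% of the lower and 3.07% of those within 2-fold. The gamma-activated motif TTCNNNGAA, bound by STAT dimers, was in 8.13% of all promoters, 14.0% of the lower genes, 10.7% of the higher and 6.74% of those within 2-fold. Both strands were searched. These shares describe letters in a short window and no difference among them was tested.

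**Figure D2:**
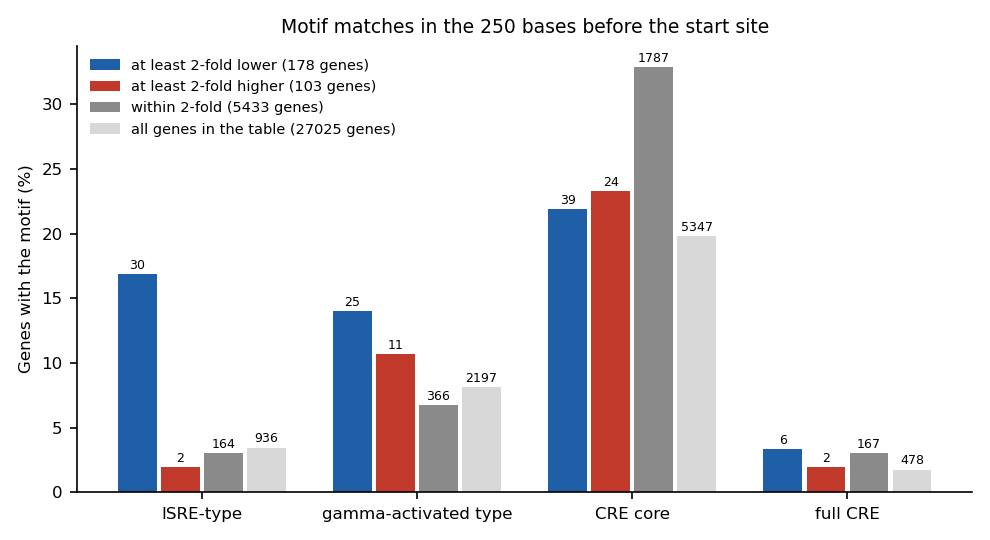
Share of promoters (250 bases before the start, y axis in percent) holding the ISRE-type motif, the CRE core, the full CRE or the gamma-activated motif, for all genes of the table and for genes lower, within 2-fold and higher with iloprost. The ISRE-type motif stands at 16.9% of lower genes against 3.46% of all genes, while the CRE core is at 23.3% of higher genes against 32.9% of genes within 2-fold.

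Among the receptors of prostanoids, 4 of 10 genes were measured. Ptgir, the receptor for iloprost, had signals of 159 with vehicle, 168 with IL-1β, 211 once indomethacin was added and 83.0 once iloprost was added (values of 4 arrays are given in this order below) (log2 ratio -1.36). Ptger4, the prostaglandin E2 receptor EP4 that also couples to the stimulatory G protein, had 346, 379, 786 and 228 (-1.79). Both were lowest on the array with iloprost, below their level with vehicle. Ptgfr, the receptor for prostaglandin F2α, which couples to Gq, went the other way with 109, 143, 63.4 and 199 (1.64), and its other measured probe set gave 2.0. Ptger2 was within 2-fold at 84.2 and 73.7 (-0.20). The other 6 receptor genes were at the floor on both arrays.

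The signalling parts downstream of the receptor differed less. Of 17 measured genes for G proteins and adenylyl cyclases, 1 was higher, Arrb1, encoding the receptor-desensitising β-arrestin (signal 26.8 without and 98.8 with iloprost, at least 1.39), and none was lower. The stimulatory G protein gene Gnas had signals of 1650 and 1702. None of 10 measured protein kinase A subunits and anchors was past 2-fold (median 0.22). Of 7 measured cyclic AMP phosphodiesterases none was past 2-fold either, although Pde4b (113 and 218, log2 0.94) and Pde8a (122 and 231, log2 0.91) came close to it, and the list median was 0.24. The prostanoid enzyme genes held 1 lower gene of 11 measured, Tbxas1, encoding thromboxane synthase (110 and 39.0, -1.5). Ptgs2, the inducible cyclooxygenase gene, had 457, 3798, 2547 and 2579 (0.01). Its level with iloprost was thus close to that with IL-1β and indomethacin.

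Among RGS proteins, which shorten G protein signals, 3 of 8 measured genes were lower and none higher. Rgs16 had signals of 101, 181, 399 and 88.6 (-2.18), Rgs3 had 536, 468, 940 and 382 (-1.31), and Rgs18 was at most -1.34. Rgs2 was within 2-fold (0.03). Rgs16, Rgs3 and Ptger4 were each highest on the array with indomethacin and lowest on that with iloprost. Those arrays form the ratio that called them lower, so this order is not independent of the call.

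Crem, the gene of the inducible CREB-family regulator, had signals of 68.0, 233, 90.6 and 376 (2.04, other probe set 1.65). Atf3, a stress-induced repressor of the same family, had 376, 252, 357 and 88.2 (-2.02). These were the 2 genes past 2-fold of 8 measured in the CREB family, and they moved in opposite directions. Of 18 measured textbook CREB targets, 7 were higher and 1 lower, against 1.98% and 3.19% of all measured genes. Their median was 0.56 against 0.04 over all measured genes. This list too was drawn up with earlier results of these data known, so its counts are no independent support. The orphan nuclear receptor gene Nr4a1 had 34.1, 897, 75.8 and 549 (2.85), and its relative Nr4a2 was at least 1.42 (17.2, 159, 22.4 and 101). Gem, a small GTPase gene, had 51.9, 191, 32.8 and 96.3 (at least 1.35). The other higher targets were Crem, Nfil3, Thbd and Odc1, given with their own groups, and the lower target was Egr1. All 7 higher targets were brighter with IL-1β alone than with vehicle and dimmer with indomethacin added. The array with indomethacin is also the base of the iloprost ratio, so the latter is not independent of their call as higher. Dusp1, a phosphatase gene of the same list, was within 2-fold at 1160 and 1697 (0.54). Outside the list, Dio2, encoding the enzyme that activates thyroid hormone, had 43.7, 127, 46.1 and 185 (1.99).

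Adrenomedullin, a vasodilator peptide, acts on a receptor built from CALCRL and a RAMP protein, and its parts moved apart. Ramp3 was among the highest genes, with signals of 22, 117, 5.4 and 508 (at least 3.75). Calcrl was lower, with 298, 332, 242 and 111 (-1.13), and so was the ligand gene Adm, with 275, 429, 524 and 255 (-1.05). The remaining measured gene of the 4 was within 2-fold.

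The largest block of lower genes belonged to the interferon response. Of 84 measured genes in 7 lists of its sensors, signalling factors and targets, which leave out the interferons and their receptors (5 measured, none past 2-fold), 55 were lower, none was higher, and the median log2 ratio was -1.43. They made up 24.7% of all lower genes. These lists were drawn up with earlier results of these data known, so the counts describe them and are no independent support. On the same arrays the summed macrophage marker signal was 41498 with iloprost against 47158 without. Csf1r was at -0.07, with its other probe sets at 0.48 and 0.55. The part of macrophage RNA in the interferon values was not tested. The summed fibroblast marker signal was not lower with iloprost, as given above.

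Of nucleic acid sensors and adaptors, which start interferon production, 6 of 12 measured genes were lower, with a median of -1.05. Ifih1, encoding the RNA sensor MDA5, had signals of 2041, 1821, 2129 and 279 (-2.94). Zbp1, a sensor of Z-form nucleic acid, had 833, 833, 780 and 192 (-2.03), and Dhx58, encoding the helicase LGP2, had 327, 325, 296 and 118 (-1.34). The endosomal RNA receptor genes Tlr3 (234 and 47.7, -2.31) and Tlr7 (170 and 34.1, at most -2.18) and the RNA-activated kinase gene Eif2ak2 (508 and 169, -1.59) complete the 6. The kinase genes Tbk1 (-0.34) and Ikbke (-0.59), which pass the signal on, were within 2-fold.

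The interferons themselves were not measurable here, since 9 of 14 genes for interferons and their receptors were at the floor on both arrays. The 5 measured were within 2-fold, with a median of 0.07. Ifnar1 and Ifnar2, the chains of the type I interferon receptor, stood at -0.07 (signals 770 and 739) and 0.19 (669 and 768). Ifngr1 and Ifngr2 of the interferon γ receptor stood at 0.31 and 0.07. Another probe set gave 0.55 for Ifnar2 and -0.23 for Ifngr2. So the receptor genes were within 2-fold while many response genes were not.

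Of 16 measured JAK, STAT and IRF genes, 4 were lower and none higher. Irf7, the amplifier of type I interferon, had signals of 799, 634, 654 and 179 (-1.88). Stat2, a subunit of the ISRE-binding complex ISGF3, had 409, 345, 332 and 107 (-1.64). Irf8 had 105, 134, 163 and 57.6 (-1.51), and Irf1 had 605, 334, 507 and 214 (-1.25). All 4 were at their lowest with iloprost. The others spread around the median gene, from Irf5 (-0.72), Irf2 (-0.56), Irf9 (-0.53) and Jak2 (-0.48) over Stat5b (-0.41), Jak1 (-0.16) and Irf3 (-0.03) to Tyk2 (0.10), Stat3 (0.11), Stat6 (0.20), Stat5a (0.37) and Jak3 (0.42).

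The antiviral effectors had 23 lower genes of 29 measured and a median of -1.64. Ifit2, whose protein binds foreign RNA, had signals of 3020, 2284, 2479 and 135 (-4.21). Ifit3 had 4662, 3932, 4479 and 369 (-3.61), and Ifit1 had 3110, 2459, 2922 and 416 (-2.82). Rsad2, encoding viperin, had 5042, 4368, 4740 and 514 (-3.21; other probe sets -3.51 and -3.50), and its neighbour Cmpk2, a mitochondrial nucleotide kinase gene, had 1936, 1680, 1775 and 101 (-4.15). In each of these genes the 3 arrays without iloprost were close together and the array with it was far below. Oasl1, a regulator of Irf7 translation, had 407, 318, 302 and 67.5 (-2.17). Not all effectors were lower: Ifitm3 (-0.23) and Ifitm2 (0.31), encoding membrane proteins that block virus entry, were within 2-fold at signals of 4838 and 4161 and of 2416 and 3020.

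All 11 measured interferon-inducible GTPase genes were lower, with a median of -2.24. These GTPases attack vacuoles that hold pathogens. Iigp1 had signals of 2702, 2069, 2449 and 223 (-3.47), Igtp had 2537, 2126, 2345 and 330 (-2.84), and Irgm1 had 1274, 1106, 1186 and 327 (-1.87). Among the guanylate-binding proteins, Gbp6 (-2.67), Gbp7 (-2.50) and Gbp3 (-1.67) were lower, and the dynamin-like Mx1 was at most -3.08. The members of this family and of the Ifi200 and Schlafen families are close copies of each other, and a probe set for 1 of them may read several.

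Of 7 measured p200 and Schlafen genes, 5 were lower (median -1.31), from Ifi209 (481 and 56.1, -3.11) to Ifi202b (4696 and 2191, -1.11). Of 4 genes of ISG15 conjugation, which attaches a ubiquitin-like tag to proteins, 3 were lower, among them the deconjugating protease gene Usp18 (2113, 2112, 2211 and 290, -2.94) and Ube2l6 (at most -1.91). Of 11 measured PARP and TRIM interferon targets, 8 were lower (median -1.67), led by Parp14 (1213 and 238, -2.36), Parp12 (-1.82), Pml (-1.76) and Trim30a (-1.75), and Trim25 was within 2-fold (-0.53). The summed macrophage marker signal given above applies to these groups too.

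**Figure D3:**
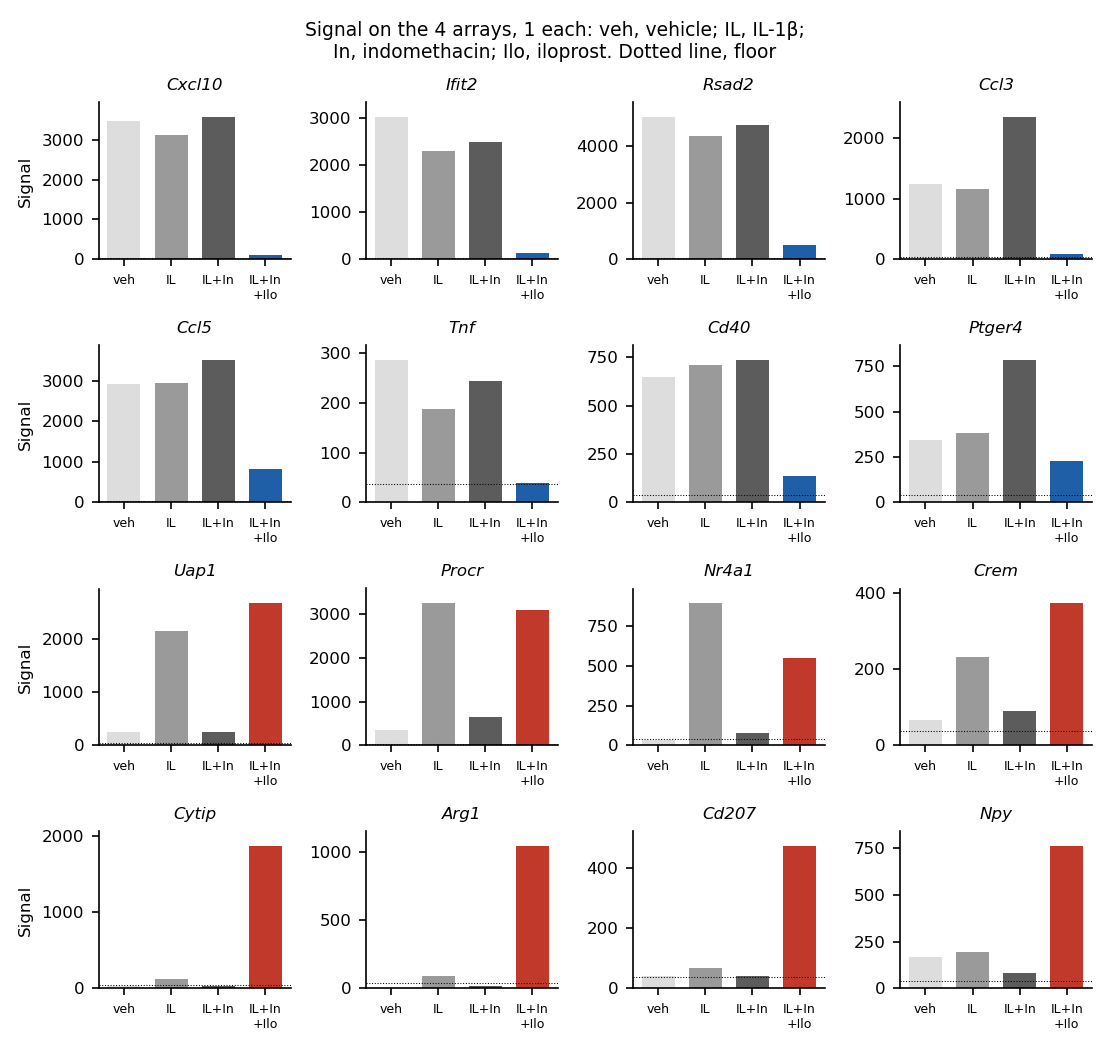
Signal (y axis, linear from 0) of 16 genes on the 4 arrays, vehicle, IL-1β, IL-1β with indomethacin and IL-1β with indomethacin and iloprost, 1 bar per array and no error bars because there is 1 array each. Cxcl10, Ifit2 and Rsad2 are high on the 3 arrays without iloprost and low with it, whereas Uap1, Procr and Nr4a1 are high with IL-1β, low with indomethacin and high again with iloprost.

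Genes for antigen presentation included 6 lower of 15 measured class I and peptide-loading genes. The lower ones were mainly loading parts: the transporter genes Tap1 (416 and 115, -1.86) and Tap2 (-1.48) and the immunoproteasome genes Psmb9 (-1.54), Psmb10 (-1.49) and Psmb8 (-1.19). The bright class I heavy-chain genes H2-K1 (-0.07) and H2-D1 (-0.14) and the light-chain gene B2m (-0.15) were within 2-fold. Class I heavy-chain probe sets can read several family members. In class II and co-stimulation, 4 of 7 measured genes were lower and 1 higher. Cd40, the co-stimulatory receptor gene, had signals of 650, 712, 737 and 135 (-2.46), Cd274, encoding the inhibitory ligand PD-L1, had 301, 413, 575 and 116 (-2.31), and Cd83 was higher at 123 and 280 (1.18).

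Some adjacent genes shared a direction. Of the 223 lower genes, 64 (28.7%) had a neighbour among the measured genes that was lower too, and of the 138 higher genes 17 (12.3%) had a higher one, in the gene order of RefSeq on GRCm38.p6. A gene was counted if the measured gene before it or the one after it had its direction. The share expected without clustering is therefore larger than the 3.19% lower and 1.98% higher genes among all measured, and it differs between the directions. The difference between the shares was not tested. The longest runs of lower genes had 4 members, Psmb9 with Tap1, Psmb8 and Tap2, Gbp7 with Gbp3, Gbp2b and Gbp2, and Sdad1 with Cxcl9, Cxcl10 and Cxcl11. The longest run of higher genes was Medag, Hsph1 and N4bp2l1. Csf2rb2 with Csf2rb, Ctla2b with Ctla2a and Scd2 with Scd1 were pairs of higher paralogues. Paralogues that lie together can also share probe sequence, so these runs are not independent readings.

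Among chemokines, Ccl12, Cxcl10 and Ccl3 were lowest. Cxcl10 (probe set 1418930_at), which draws activated T cells through CXCR3, had signals of 3478, 3119, 3576 and 105 (-5.10). Cxcl9 had 1168, 371, 688 and 2.9 (at most -4.20) and Cxcl11 had 1360, 1101, 1288 and 82.5 (-3.97), so all 3 CXCR3 ligands were lower. Of 12 measured CXC chemokines 1 was higher, Ppbp (at least 1.15, signals 36.6 and 84.1). The neutrophil attractants Cxcl1 (652, 3751, 3250 and 2913, -0.17) and Cxcl5 (615, 4360, 3613 and 3252, -0.16), both far brighter with IL-1β than with vehicle, stayed near their level without iloprost. Cxcl12, which binds CXCR4, was at 0.14.

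Of 12 measured CC and CX3C chemokines, 5 were lower and none higher. Ccl12 (probe set 1419282_at), a monocyte attractant, had signals of 1279, 1798, 1847 and 24.8 (at most -5.63), the lowest ratio of all named genes. Ccl3 (1419561_at), which attracts monocytes and other leukocytes, had 1244, 1164, 2359 and 85.1 (-4.80), and its neighbour Ccl4 had 293, 325, 750 and 62.9 (-3.59). Ccl5, a further attractant of T cells, had 2933, 2944, 3520 and 821 (-2.11). All 3 were brightest with indomethacin and dimmest with iloprost, the arrays of the ratio, so this order is not independent of their call as lower. Ccl20, a ligand of CCR6, had 39.7, 313, 275 and 138 (-1.01). The monocyte attractants Ccl2 (5865 and 4771, -0.31) and Ccl7 (3177 and 2233, -0.52) and the macrophage chemokine Ccl9 (-0.77) were within 2-fold. Macrophages are a main source of Ccl3, Ccl4 and Ccl12, and the part of the macrophage marker values given above in these ratios was not tested.

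Among 8 measured chemoattractant receptors, Cxcr4 (86.9 and 231, 1.4) and the scavenging receptor gene Ackr3 (216 and 686, 1.66), which both bind CXCL12, were higher. Ccrl2 (-1.37), Fpr2 (-1.27), encoding a formyl peptide receptor, and the complement receptor gene C3ar1 (-1.03) were lower. Their CXCL12 ligand was level, as stated.

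In the IL-1 family, 3 genes were higher and 5 lower of 11 measured. Among the agonist genes, Il1b had signals of 894, 3952, 3121 and 1323 (-1.25), Il1a had 23.8, 255, 189 and 79.1 (-1.26), and Il18 had 347, 346, 364 and 128 (-1.52), so these 3 were lower. The agonist gene Il33, an alarmin, was higher (71.2, 338, 127 and 292, 1.19). The receptor antagonist gene Il1rn was higher, with 1270, 1832, 1026 and 2188 (1.08; other probe sets 1.34 and 0.95), as was the signalling receptor gene Il1r1, with 102, 206, 115 and 235 (1.02). Il18bp, encoding a secreted blocker of IL-18, was lower (-1.15), as was Casp1, the gene of the protease that matures IL-1β (754 and 284, -1.42).

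Other cytokines were mixed. Tnf had signals of 286, 187, 244 and 38.5 (-2.67), close to the floor with iloprost. Tnfsf11, encoding the osteoclast factor RANKL, had 10.9, 199, 23.8 and 166 (at least 2.13), and Tnfsf4 was at least 1.16. Il11, a fibroblast cytokine of the IL-6 family, had 20.1, 247, 33.6 and 190 (at least 2.33), and Tslp, which acts on dendritic cells, had 8.0, 351, 144 and 295 (1.03). Csf2, encoding GM-CSF, had 1.6, 79.0, 241 and 28.3 (at most -2.69). Il6 had 312, 4757, 3496 and 3617 (0.04) and Lif was at 0.10 (320 and 346), so these strongly IL-1β-dependent cytokines did not follow Tnf or Csf2. The shared receptor chains of the GM-CSF family, Csf2rb (1.4) and Csf2rb2 (1.76), were higher and are close copies.

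Among the genes of inflammatory signalling, most members of the NF-κB, TNF receptor, Toll-like receptor and negative regulator lists were within 2-fold. Of all measured genes 3.19% were lower. Of 23 measured NF-κB factors and inhibitors 1 was lower (median -0.17), and Nfkbia, the inhibitor gene that NF-κB induces, was at -0.20 with signals of 4869 and 4253. Of 12 measured TNF receptor genes 1 was lower, Cd40, and Tnfrsf1a stood at 0.01. Of 15 negative regulators 2 were lower, Usp18, already counted with ISG15 conjugation, and Ptpn6 (-1.41, other probe set -0.63), and none was higher. The median of that list was 0.02. Socs3, which blocks STAT3 signalling, had 416, 1669, 1226 and 1219 (-0.02). Of 15 Toll-like receptor genes and co-receptors 3 were lower, Clec7a and the already counted sensor genes Tlr3 and Tlr7. The lipopolysaccharide co-receptor gene Cd14 stood at 0.62 (4254 and 6562) and Myd88 at -0.76.

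Other leukocyte-type genes moved in both directions. Arg1 (probe set 1419549_at), encoding arginase and a marker of alternative macrophage activation, had signals of 0.9, 86.8, 15.7 and 1045 (at least 4.79). Cytip (1435697_a_at), which regulates cytohesin and integrin adhesion in leukocytes, had 26.2, 119, 31.2 and 1876 (at least 5.63), the highest ratio of all named genes. Cd207 (1425243_at), encoding langerin, had 39.7, 66.9, 41.0 and 475 (3.53), and Havcr2, encoding TIM-3, had 24.4, 66.2, 32.9 and 338 (at least 3.16). On all 4 of these genes the array with iloprost stood above the other 3. Of 18 dendritic cell markers 4 were measured, Cd207 and Cd83 higher, Fscn1 lower (-1.09) and Cst3 at 0.06, with summed signals of 5323 and 5034, and Itgax and Flt3 were at the floor. Nos2, the inducible nitric oxide synthase gene that competes with arginase for arginine, had 17.1, 74.8, 121 and 44.9 (-1.44). In the list of alternative activation, 3 of 17 measured genes were higher and 2 lower, with Mrc1 at -0.39. Ch25h, whose product 25-hydroxycholesterol is antiviral and represses sterol synthesis, had 626, 844, 1419 and 232 (-2.62).

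Hyaluronan synthesis and its UDP-sugar supply had the largest share of higher genes among the lists with at least 10 measured members, 6 of 15, with none lower and a median of 0.43. The textbook CREB targets came close with 7 of 18, and of all measured genes 1.98% were higher. The lists were drawn up with earlier results of these data known, so this rank is no independent support. Uap1 (probe set 1416743_at), which makes UDP-N-acetylglucosamine, had signals of 256, 2156, 248 and 2689 (3.43; other probe sets 2.77 and 2.87). Ugdh, which makes the other substrate UDP-glucuronate, had 581, 2086, 860 and 2224 (1.36). Gfpt2, which opens the hexosamine pathway, had 103, 451, 187 and 486 (1.37). The synthase genes followed, with Has2 at 125, 286, 103 and 340 (1.71) and Has1 at 23.2, 125, 9.6 and 101 (at least 1.42). Vcan, encoding the hyaluronan-binding proteoglycan versican, had 301, 561, 296 and 755 (1.34). RNA for enzymes of both substrates, for these synthases and for a binding proteoglycan was thus higher, and Has3 was at the floor. Cd44, the hyaluronan receptor gene, was at -0.23 (2461 and 2114) and Ugp2 at 0.31. The sugars and hyaluronan themselves were not measured.

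Collagen, contractile and ribosomal protein genes moved little as classes. None of 18 measured collagens (median 0.02), none of 17 contractile genes (median -0.05) and none of 23 ribosomal protein genes (median -0.07) was past 2-fold. Of 31 measured matrix proteases and inhibitors, 3 were higher and 3 lower, against 1.98% and 3.19% of all measured genes. Mmp13, encoding collagenase-3 that cuts cartilage collagen, had signals of 759, 1420, 1740 and 514 (-1.77), and Mmp10, encoding stromelysin-2, had 14.6, 331, 513 and 117 (-2.14). Mmp19 (56.6 and 170, 1.57), Mmp11 (at least 1.15) and Adam8 (898 and 2165, 1.26) were higher. Timp1, the protease inhibitor gene, had 4027 and 4072 (0.01). Prg4, encoding the joint lubricant lubricin, was at 0.59 (606 and 919).

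The coagulation list held 2 higher and 2 lower genes of 14 measured. Procr, the endothelial protein C receptor gene, had signals of 347, 3264, 640 and 3097 (2.27), and Thbd, encoding thrombomodulin, its partner in activating protein C, had 70.4, 373, 99.9 and 300 (1.58). F3, encoding tissue factor that starts clotting, had 744, 336, 522 and 231 (-1.19). Serpinb2, encoding the plasminogen activator inhibitor PAI-2, had 12.5, 408, 524 and 104 (-2.35). The other 10 measured genes were within 2-fold, among them the anticoagulant genes Tfpi, Tfpi2 and Pros1 and the fibrinolytic genes Plat (-0.49), Plau and Plaur. The endothelial markers Pecam1 and Cdh5 were at the floor on both arrays.

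**Figure D4:**
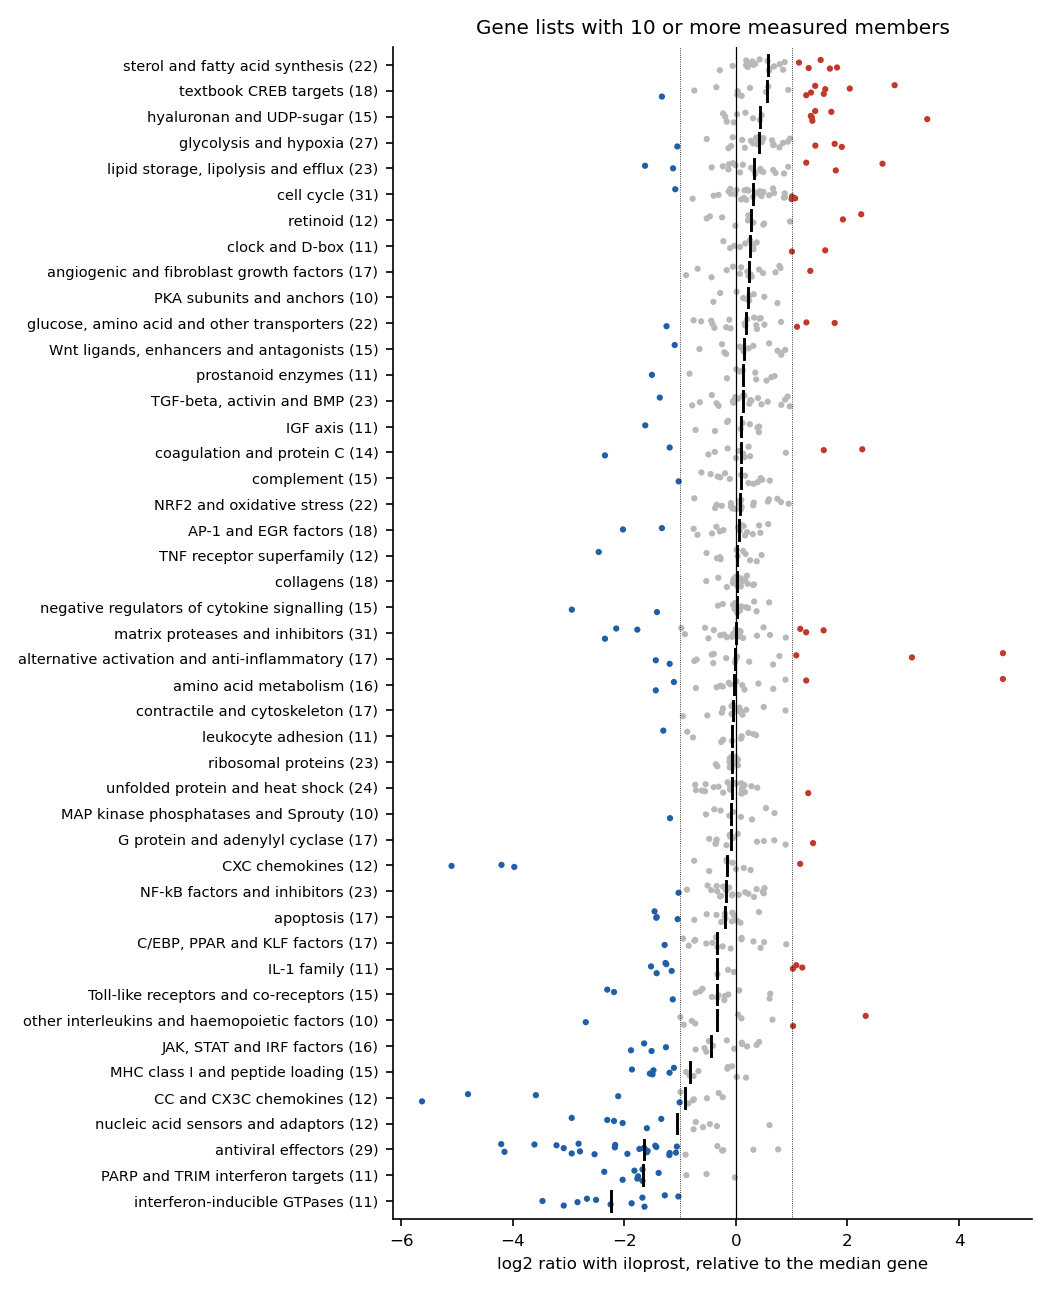
Log2 ratio, iloprost with IL-1β and indomethacin over IL-1β and indomethacin, of each measured member (points) of the lists with at least 10 measured genes, with the list median as a bar and dotted lines at 2-fold. The interferon-inducible GTPases lie wholly below the lower line with a median of -2.24, the hyaluronan list has 6 of 15 genes above the upper line, and collagens and ribosomal proteins stay between the lines.

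Among growth factors, the EGF receptor list held 2 lower genes of 5 measured, the ligand gene Hbegf (39.0, 229, 282 and 119, -1.25) and Lrig1, encoding a brake on the receptor (23.9, 69.7, 121 and 41.9, -1.54), while the ligand gene Ereg was within 2-fold (37.5, 576, 440 and 264, -0.74). Lower genes of other families were Bmp6 (-1.36) of the TGF-β list, in which 1 of 23 was lower, Rspo2 of the Wnt list (849, 297, 453 and 213, -1.1) and Igfbp3 of the IGF list (at most -1.62). Angpt1, the vessel-stabilising ligand of TIE2, was the only higher gene of 17 angiogenic factors (at least 1.33). Inhba, encoding the activin subunit, had 207, 1983, 796 and 1523 (0.93). Stc1, encoding the hormone stanniocalcin, was at least 2.57 (32.7, 206, 35.9 and 224).

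Immediate-early and other transcription factors stayed mostly within 2-fold. Of 18 AP-1 and EGR genes 2 were lower, Atf3 and Egr1 (137, 334, 393 and 158, -1.33), while Fos (1761 and 2650, 0.58) and Jun (862 and 955, 0.14) were within 2-fold. Klf5 was lower (-1.28) and was the only gene past 2-fold of 17 measured C/EBP, PPAR and KLF genes. Spred1, an inhibitor of the Ras pathway, was at -1.18. Nfil3 (56.9 and 174, 1.60) and Bhlhe40 (186 and 375, 1.01), repressors tied to the circadian clock, were the 2 higher genes of 11 in the clock list. Mxi1, encoding a MAX partner that opposes MYC, had 98.7, 154, 95.6 and 458 (2.25; other probe set 2.35), and Myc stood at -0.51.

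Genes of sterol and fatty acid synthesis leaned to the high side, and those of lipid storage were mixed. Of 22 measured genes of sterol and fatty acid synthesis 5 were higher, none was lower and the median was 0.58. Among all measured genes the shares were 1.98% higher and 3.19% lower. Both lists were drawn up with earlier results of these data known. The desaturase genes Scd1 (93.0, 133, 83.7 and 296, 1.82) and Scd2 (491, 459, 306 and 760, 1.31), the elongase gene Elovl5 (224, 301, 192 and 621, 1.69) and the sterol enzyme genes Sqle (152 and 334, 1.13) and Pmvk (at least 1.52) made up the 5. Hmgcs1, an early step of sterol synthesis, stood at 0.43. For Scd1, Scd2 and Elovl5 IL-1β alone stayed within 2-fold of vehicle (0.29, -0.32 and 0.20). The list of lipid storage, lipolysis and efflux held 3 higher and 2 lower genes of 23 measured, with a median of 0.33. In lipid storage, Hilpda (30.2, 119, 64.3 and 400, 2.63), Dgat1 (51.1, 157, 66.2 and 231, 1.79) and the droplet coat gene Plin2 (960, 890, 847 and 2046, 1.26) were higher. Lpl, the secreted lipoprotein lipase gene, was lower with 3902, 3103, 4176 and 1360 (-1.63; other probe set -2.14), as was Fabp3 (-1.12). Abca1, the cholesterol exporter gene, was at 0.94 on its brightest probe set and at 1.20 and 1.21 on its others.

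Of 27 glycolysis and hypoxia genes, 3 were higher and 1 lower, with a median of 0.42. Ddit4, a hypoxia- and stress-induced brake on mTOR, had signals of 333, 818, 227 and 853 (1.90), and the mitophagy gene Bnip3 had 430, 581, 391 and 1057 (1.43). Glycolytic enzyme genes such as Ldha (0.41), Pgk1 (0.27) and Aldoa (0.12) and the glucose carrier gene Slc2a1 (0.42) were within 2-fold. Among transporters the lactate carriers Slc16a3 (63.8 and 219, 1.77) and Slc16a1 (446 and 1078, 1.27) and the metal ion carrier gene Slc11a1 (1.1) were higher and the iron exporter gene Slc40a1 was lower (at most -1.24). In polyamine metabolism, Odc1, the rate-limiting synthetic enzyme (319 and 769, 1.26), and Smox, encoding spermine oxidase (125 and 401, 1.67), were higher, and Sat1, which acetylates polyamines for export, was lower (1977 and 921, -1.11). In retinoid metabolism, Rdh10, the enzyme that makes retinaldehyde (102, 384, 88.7 and 424, 2.25), and the retinoic acid carrier gene Crabp2 (at least 1.92) were higher.

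Smaller groups and single genes complete the picture. Npy, encoding neuropeptide Y, had signals of 168, 196, 84.2 and 765 (3.17), and Penk, the enkephalin precursor gene, had 103, 983, 351 and 917 (1.38). Kcne4, a potassium channel subunit gene, had 43.4, 260, 62.8 and 208 (1.72). Pkdcc, encoding a secreted kinase of skeletal development (66.0, 347, 70.3 and 325, 2.20), and Medag (148, 542, 138 and 580, 2.06) were higher. Among cell cycle genes 3 of 31 were higher, Rrm2 (1.01), E2f1 (at least 1.06) and the inhibitor gene Cdkn1b (48.5 and 97.6, 1.00), and Ccnd1, encoding cyclin D1, was lower (462 and 219, -1.09). Of 17 apoptosis genes 4 were lower: the inflammatory caspases Casp1, Casp4 (-1.43) and Casp12 (-1.04), and Bcl2l1 (115 and 42.1, -1.46). Of 22 NRF2 and oxidative stress genes none was past 2-fold (median 0.08), and of 24 chaperone and unfolded protein genes 1 was, Hsph1 (287 and 710, 1.30).

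The array with IL-1β alone and the array with vehicle share no dish with the pair compared, so the IL-1β ratio could be set beside the iloprost ratio. IL-1β against vehicle gave 120 higher genes of 6964 measured (1.72%) and 39 lower (0.56%). Of the 138 genes higher with iloprost, 135 had a ratio in both comparisons and 34 (25.2%) were also higher with IL-1β, against 1.76% of all 6803 genes with both ratios. Read the other way, those 34 are 28.3% of the 120 genes higher with IL-1β. They include Crem, Nr4a1, Nr4a2, Penk, Procr, Thbd, Uap1, Il11, Tnfsf11, Tslp, Il33, Rdh10, Pkdcc, Medag and Stc1. The remaining genes higher with iloprost were not, and Npy (-0.01), Plin2 (-0.33), Elovl5 (0.20) and Cd83 (-0.34) are examples by their IL-1β ratio. The median IL-1β ratio of the genes higher with iloprost was 0.30.

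Of the 223 genes lower with iloprost, 9 (4.04%) were higher and 10 (4.48%) lower with IL-1β, against 1.76% and 0.544% of all 6803 genes with both ratios, and their median IL-1β ratio was -0.26. Read the other way, the 10 are 27.0% of the 37 genes lower with IL-1β that had both ratios. The 9 were Bmp6, Ccl20, Egr1, Hbegf, Il1a, Il1b, Lmcd1, Mmp10 and Serpinb2, an IL-1β-induced set that was lower with iloprost. The 10 were Casp12, Cxcl9, F3, Irf1, Lifr, Mx1, Mx2, Rgs18, Rspo2 and Tmem140, lower with IL-1β and lower still with iloprost than with indomethacin. Most lower genes were thus within 2-fold with IL-1β, although their median lay below that of all genes with both ratios (-0.01). The interferon genes had a median IL-1β ratio of -0.29, and the IL-1β ratios of Cxcl10, Ifit3 and Rsad2 were -0.38, -0.47 and -0.43. Fen1 and Ttc28 were lower with IL-1β and higher with iloprost, 2 of the same 37 genes. That share lies above the 1.98% of all measured genes that were higher with iloprost, but it rests on 2 genes and was not tested.

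**Figure D5:**
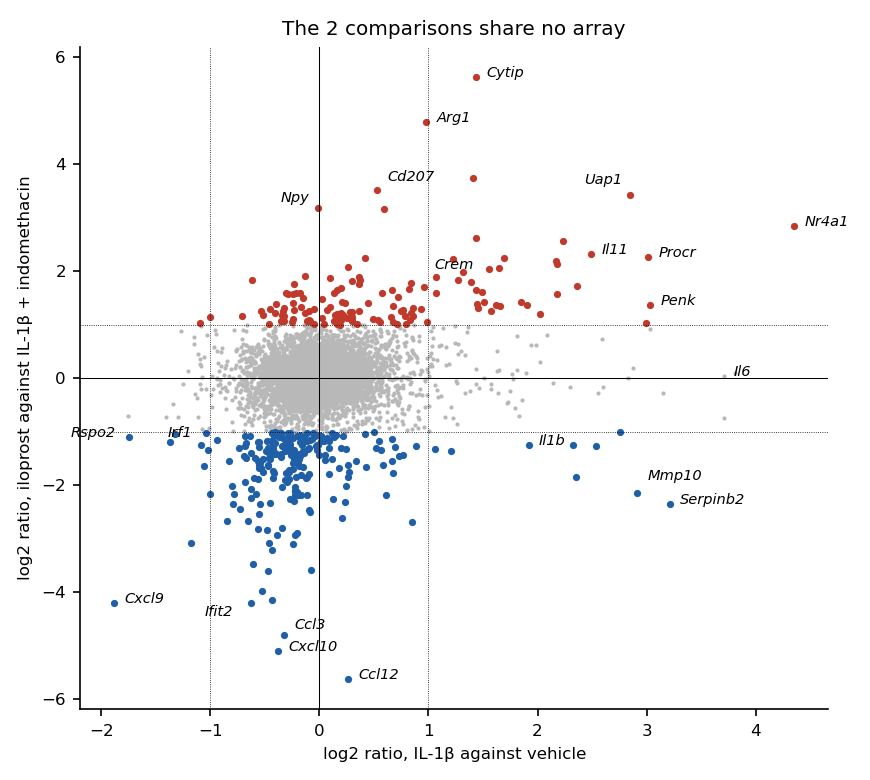
Log2 ratio of IL-1β over vehicle (x axis) against log2 ratio of iloprost with IL-1β and indomethacin over IL-1β and indomethacin (y axis) for the 6803 genes with both ratios, with lines at 2-fold. The upper right holds 34 genes, such as Uap1, Procr and Nr4a1, and the lower right holds 9, such as Il1b, Serpinb2 and Mmp10, while Cxcl10 and Ifit2 lie at the bottom left of centre.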

How the data were processed

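Mouse synovial fibroblast RNA, 1 dish per treatment, was measured on 4 Affymetrix arrays, labelled and hybridised by standard procedures per the labels' protocols. The deposited values are linear intensity values, 1 per probe set and array; how they were summarised and scaled is not given in the sources used here. In this design the number of arrays limits the precision. Of 22690 probe sets, 20380 that name 1 gene and are not controls were used (64 controls, 691 with several genes and 1555 others unnamed here were left out), and they name 12393 genes. Names came from an annotation table of the platform that may be out of date, and RefSeq on GRCm38.p6 changed 0 symbols.

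Signals were floored at 37.6 (50th percentile), log2 was taken, a gene took its brightest probe set by mean log2 signal, and each array was centred on the median of 6222 genes above the floor on all arrays. With 1 array per group no test was run. Genes past 2-fold were counted, and lists are given by counts and medians, with a bound entering a median at its bound. The members and 60 gene lists were chosen with earlier results of these data known. The genes named are the 25 highest and 25 lowest measured on both arrays with a signal of at least 113.2 (70th percentile) on the brighter, up to 12 bounds per direction at least 4-fold from the floor, up to 8 list members past 2-fold and the 3 brightest others per list, and all members of 4 lists on prostanoid receptors, interferons, JAK, STAT and IRF factors, and phosphodiesterases; other genes past 2-fold were named after their values were seen. Other scales, floors, probe set rules and probe set types were tried. Scripts (Python 3.11.15, numpy 2.4.6, pandas 2.3.3, matplotlib 3.10.9) were tested on simulated data.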

Additional observations from a re-analysis of the deposited data

How the results depend on the processing

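No paired analysis was possible because each group has 1 array, and for the same reason no array could be left out. The count of 138 higher genes was 86 with a floor at the 65th percentile (a signal of 87.0) and 250 with a floor at the 35th percentile (13.7), of which 79 and 131 were among the 138. The count of 223 lower genes was 162 and 302 under these floors, with 162 and 223 shared. As deposited, with quantile normalization, with the mean over probe sets, and without probe sets that can match several transcripts, the higher counts ran from 107 to 141 and the lower from 181 to 230. The share of higher genes among those past 2-fold was 38.2% and ran from 34.7% to 45.3%. Of 183 named genes past 2-fold, none reversed under these 6 settings. With the higher floor 145 stayed past 2-fold, 31 came within it and 7 had no ratio. Without multi-transcript probe sets 145 stayed, 4 came within it and 34 had no ratio, and under the other 4 settings 178 to 182 stayed. The median of the TNF superfamily ligands (0.49 over 4 genes) was -0.25 with the higher floor and -0.08 with the lower, and the median of other interleukins (-0.34) was 0.03 without multi-transcript probe sets. The ratios of genes near the floor rest on the floor chosen.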

Other observations

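Probe sets outside the gene values behaved as follows in the comparison with and without iloprost. Of 691 probe sets that name several genes, 427 were measured, 2 were at least 2-fold higher and 16 at least 2-fold lower, with log2 ratios from -4.83 to 1.57. Of 1555 unnamed probe sets that are not controls, 480 were measured, 4 higher and 16 lower. Of 64 control probe sets, 45 were measured and none was past 2-fold, with ratios from -0.71 to 0.37 and a median of -0.10.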
